A study of Homo sapiens with 4 samples.

Results

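ABC drug efflux transporters are membrane proteins that use ATP to carry drugs and their conjugates out of cells. The 8 genes described here encode P-glycoprotein (ABCB1), the breast cancer resistance protein (ABCG2) and 6 multidrug resistance proteins (ABCC1, ABCC2, ABCC3, ABCC4, ABCC5 and ABCC10). They were chosen by name from the 20024 genes of the count table, with the knockdown-against-control differences of these data already known. All 8 were found and all 8 passed the low-count filter, which left 12965 genes for testing. Their differences between the groups are therefore given as a description, without a test.

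The cells were SJSA-1, a long-established line from a human osteosarcoma, and total RNA was sequenced after knockdown of the transcription factor gene ZNF217 (2 libraries) and from control cells (2 libraries). The knockdown reagent is not given in the sources used here, nor is it given whether a library is a culture of its own. The p-values thus rest on a spread between libraries that may be technical. The title places the study in AKT signaling, tumor growth and metastasis. It states no question about drug transport.

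ABC transporters couple the binding and hydrolysis of ATP at a pair of nucleotide-binding domains to a movement of their membrane-spanning part, which releases the cargo on the far side. P-glycoprotein exports bulky hydrophobic drugs such as doxorubicin, vinca alkaloids and taxanes, and its level has long been studied in osteosarcoma, where doxorubicin is a standard drug. ABCG2 works as a dimer and exports topoisomerase inhibitors, methotrexate, porphyrins and urate. The ABCC proteins mainly export organic anions, among them glutathione, glucuronide and sulfate conjugates, so that they act downstream of the conjugating enzymes. Several of these genes are known targets of NRF2 (the NFE2L2 product), which binds antioxidant response elements, and ABCB1 is also known to respond to the drug-sensing receptor PXR (NR1I2).

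ZNF217 itself was at 37.6 and 31.9 CPM (CPM being the count over the TMM-scaled library size) in the knockdown libraries and at 66.2 and 73.4 CPM in the controls, the direction that the labels state (log2 fold change −1.01, standard error 0.20, edgeR adjusted p = 0.207). Libraries held from 21466327 to 24487126 counts. The controls stood further apart than the knockdown libraries did: over all tested genes, the median absolute log2 gap was 0.13 between the knockdown libraries and 0.48 between the controls, and over the 8 transporters it was 0.16 and 0.47. MDM2 and CDK4, which are amplified in this line, had at least 681 counts in every library. Their levels differed, with MDM2 at 30.4 to 46.3 CPM and CDK4 at 184 to 367 CPM. Of 10 bone and mesenchymal markers, VIM, SPARC, RUNX2 and TWIST1 were detected well. COL1A1 was at 8.43 and 9.05 CPM in knockdown and at 3.51 and 17.1 CPM in control, where the controls disagreed. SP7, ALPL, BGLAP, IBSP and COL1A2 had fewer than 10 counts in every library, so the markers of mature osteoblasts were near 0. Markers of other cells were low: the summed level of 10 haematopoietic markers was 50.5 and 52.5 CPM in knockdown and 79.1 and 76.1 CPM in control, nearly all of it CD68, and 5 endothelial markers summed to at most 1.07 CPM. Among 8 epithelial markers KRT8 and KRT18 were abundant in every library, but CDH1 had at most 1 count.

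Knockdown cells held more transcript of ABCB1 and ABCG2, both classic pumps outside the ABCC family, and less of ABCC1. ABCC10 and ABCC5 were higher in knockdown by smaller amounts. The differences of ABCC2, ABCC3 and ABCC4 depended on the control library. Each knockdown library lay above each control for 5 of the 8 genes (ABCB1, ABCG2, ABCC2, ABCC5 and ABCC10), each lay below for 1 (ABCC1), and for 2 the groups overlapped (ABCC3 and ABCC4). Over all tested genes 25.4% were higher and 22.9% lower by this measure, 48.3% in all. The median log2 fold change was 0.65 over the 8 genes and −0.01 over all tested genes, and without control replicate 1 the median over the 8 genes was 0.34. Over the whole table no gene passed the adjusted threshold of 0.05 by edgeR's quasi-likelihood test (0% called), while with control replicate 1 left out edgeR called 3710 genes higher and 3729 lower, and with control replicate 2 left out 2374 and 2183. A log2 fold change of 1 or more was seen for 2 of the 8 and for 5.62% of all tested genes, and one of −1 or less for 0 and for 5.56%. Because the genes were chosen on this contrast, nothing is read from these counts. In bulk RNA a change in the share of cells that express a gene cannot be told apart from a change in the transcript per cell.

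**Figure D1:**
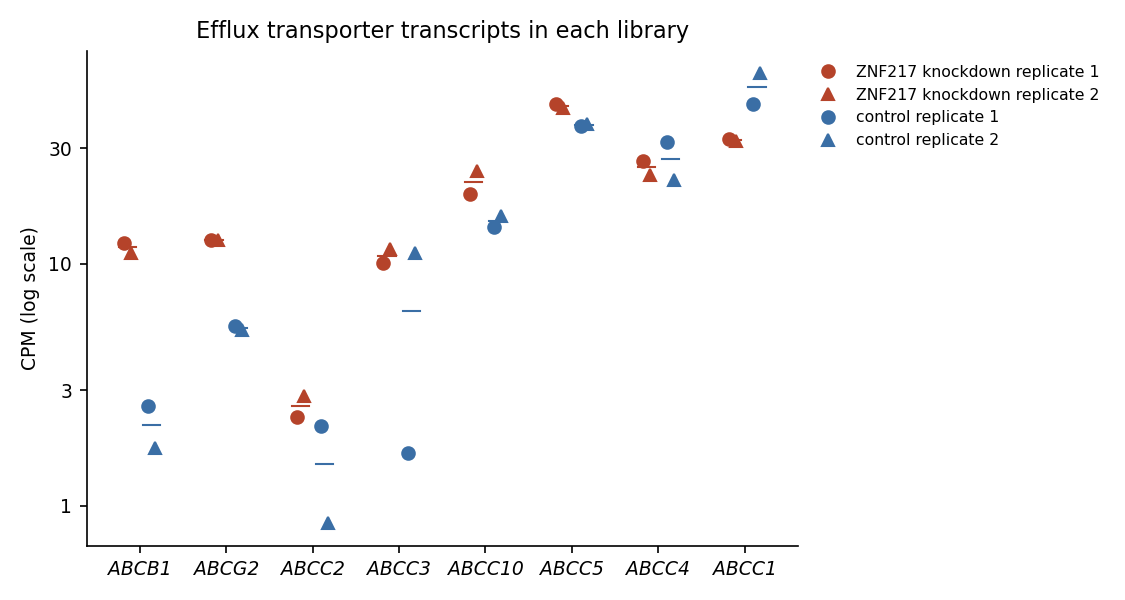
CPM (log axis) of the 8 transporter genes in each library, ordered by log2 fold change. Circles are replicate 1 and triangles replicate 2, red for ZNF217 knockdown and blue for control, and horizontal lines are group means. ABCB1 and ABCG2 have both knockdown libraries far above both controls, ABCC1 has both below, and the ABCC3 controls lie apart at 1.66 and 11.1 CPM.

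ABCB1 (ENSG00000085563, minus strand, GRCh38 chromosome 7, 87503633 to 87713323) encodes P-glycoprotein. It had 313 and 267 counts in the knockdown libraries and 56 and 39 in the controls, which is 12.2 and 11.1 CPM against 2.59 and 1.74 CPM. Each knockdown library lay above each control, and the gap between the groups was wider than the gap within either. The group means were 11.7 ± 0.767 CPM in knockdown and 2.16 ± 0.60 CPM in control (SD, n = 2 each), with a log2 fold change of 2.43 (standard error 0.36), or 5.39-fold. This was at the percentile 98.9 of the log2 fold changes of all tested genes. The value was 2.17 against control replicate 1 alone and 2.73 against control replicate 2 alone.

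Reads of ABCB1 could be confused with those of its neighbour and closest paralog ABCB4, a phospholipid exporter of bile. Of the 5892 distinct 50-base stretches in annotated ABCB1 transcripts, 2.02% also occur in ABCB4. ABCB4 was at 2.58 and 2.00 CPM in knockdown and at 1.48 and 4.02 CPM in control, so its groups overlapped. RUNDC3B overlaps the span of ABCB1 on the opposite strand and shares no exonic base with it.

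The 2 RefSeq start windows of ABCB1 are shown because ABCB1 had the largest log2 fold change of the 8 genes. Each runs from 250 bases before to 50 bases after an annotated start on GRCh38.p14, read 5′ to 3′ on the minus strand, with CCAAT boxes (CCAAT or its reverse complement) in capitals.
ABCB1 downstream start, chr7:87600835-87601134: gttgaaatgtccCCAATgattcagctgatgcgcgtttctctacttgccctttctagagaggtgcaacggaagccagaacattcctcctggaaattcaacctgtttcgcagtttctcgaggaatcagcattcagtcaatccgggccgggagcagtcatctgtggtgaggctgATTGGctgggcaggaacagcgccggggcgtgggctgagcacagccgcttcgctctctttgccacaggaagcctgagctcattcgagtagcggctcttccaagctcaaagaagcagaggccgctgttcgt
ABCB1 upstream start, chr7:87713246-87713545: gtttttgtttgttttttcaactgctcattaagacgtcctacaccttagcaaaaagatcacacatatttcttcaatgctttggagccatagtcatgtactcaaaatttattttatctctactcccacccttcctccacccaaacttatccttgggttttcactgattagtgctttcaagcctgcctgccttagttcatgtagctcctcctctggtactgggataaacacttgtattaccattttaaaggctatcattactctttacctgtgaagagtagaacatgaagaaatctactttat
The downstream window holds 2 CCAAT boxes, at 238 and 79 bases before the start, the second in reverse. The upstream window holds none of the motifs searched. Of 4 coding transcripts in GENCODE release 29, 3 start in the upstream window and 1 in the downstream window, and gene-level counts do not tell these transcripts apart.

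ABCG2 (ENSG00000118777, chromosome 4, 88090264 to 88231322, minus strand) had 323 and 302 counts in the knockdown libraries and 120 and 120 in the controls. In CPM this was 12.6 and 12.6 against 5.55 and 5.35, so both pairs of replicates lay close together and the groups far apart. The means were 12.6 ± 0.0106 CPM in knockdown and 5.45 ± 0.137 CPM in control (SD, n = 2 each), and the log2 fold change was 1.21 (standard error 0.27), or 2.31-fold. The controls, which differed widely for many genes, differed for ABCG2 by only −0.05 on the log2 scale (replicate 2 minus replicate 1). No 50-base stretch of its transcripts occurs in another annotated gene. The authors' deposited table has ABCG2 the other way round, with a log2 value of 0.26 as control over knockdown (standard error 0.41). The mean given there is not the mean of these 4 libraries.

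Of the 5 RefSeq start windows of ABCG2, a pair is shown: 1 of the 2 overlapping windows that hold GC boxes (GGGCGG on either strand), and the one that holds the antioxidant response element core (TGACNNNGC). Capitals mark these motifs.
ABCG2 window with GC boxes, chr4:88158810-88159109: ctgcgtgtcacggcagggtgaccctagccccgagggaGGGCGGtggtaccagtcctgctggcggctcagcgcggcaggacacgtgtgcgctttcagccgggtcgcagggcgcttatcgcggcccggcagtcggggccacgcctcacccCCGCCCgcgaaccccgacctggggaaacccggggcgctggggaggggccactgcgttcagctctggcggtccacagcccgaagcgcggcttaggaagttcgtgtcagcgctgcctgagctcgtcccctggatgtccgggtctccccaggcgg
ABCG2 window with the antioxidant core, chr4:88159241-88159540: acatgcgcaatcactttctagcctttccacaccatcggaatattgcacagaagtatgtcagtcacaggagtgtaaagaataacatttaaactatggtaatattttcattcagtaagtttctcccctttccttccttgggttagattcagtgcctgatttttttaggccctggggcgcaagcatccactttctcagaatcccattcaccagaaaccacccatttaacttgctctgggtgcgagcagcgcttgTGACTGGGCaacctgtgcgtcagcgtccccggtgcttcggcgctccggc
Promoter windows were found for 6 of the 8 genes, 12 windows in all, of which 3 of ABCG2 overlap each other. ABCC1 and ABCC3 had none. The antioxidant core was in 3 of the 12 windows (ABCG2, ABCC10 and ABCC4), beside 13.3% of all 35116 RefSeq windows of this length. The CCAAT box was in 1 (ABCB1), beside 34.6%, and the GC box in 4 (ABCG2, ABCC10 and ABCC5), beside 45.0%. The xenobiotic response element core GCGTG was in 7 windows, beside 36.5%, the TATA box letters TATAAA in 3, beside 11.5%, and CAGAA, the core of a sequence that ZNF217 is known to bind, in 6, beside 54.4%. Motifs were searched on both strands, and no match overlapped another motif. Neither ABCB1 window held the antioxidant core. Whether any motif bears on the differences between the groups was not tested. A match says only that the letters are present.

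Among the ABCC genes ABCC1, or MRP1, which exports glutathione conjugates and glutathione itself, was the only one lower in both knockdown libraries. ABCC1 (ENSG00000103222, chromosome 16, 15949577 to 16143074, plus strand) had 843 and 772 counts in knockdown and 992 and 1377 in control, or 32.9 and 32.2 CPM against 45.9 and 61.4 CPM. The means were 32.5 ± 0.505 CPM in knockdown and 53.7 ± 11 CPM in control (SD, n = 2 each), with a log2 fold change of −0.72 (standard error 0.22). Both knockdown values lay below both controls, but the controls differed from each other by about as much as control replicate 1 did from the knockdown libraries: the log2 fold change was −0.50 against control replicate 1 alone and −0.93 against control replicate 2 alone.

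ABCC2, or MRP2, the exporter of bilirubin glucuronides at the bile-facing membrane of liver cells, had the lowest mean level per length of the 8. It had 60 and 68 counts in knockdown and 46 and 19 in control, or 2.34 and 2.84 CPM against 2.13 and 0.848 CPM. Control replicate 1 lay just under the lower knockdown library, and control replicate 2 lay well below. The log2 fold change was 0.80 (standard error 0.57), and it was 0.28 against control replicate 1 alone or 1.59 against control replicate 2 alone.

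ABCC3, or MRP3, which exports glucuronides and bile salts, had the widest gap between controls of the 8 genes. It had 260 and 276 counts in knockdown and 36 and 249 in control, or 10.1 and 11.5 CPM against 1.66 and 11.1 CPM. Control replicate 2 lay between the knockdown libraries and control replicate 1 far below them. The controls differed by 2.68 on the log2 scale, a gap wider than that of 98.8% of all tested genes. The log2 fold change of 0.76 (standard error 0.83) was 2.70 against control replicate 1 alone and −0.05 against control replicate 2 alone, so its direction rested on control replicate 1. The authors' deposited table gives 0.41 (standard error 0.42) for ABCC3 as control over knockdown, the opposite direction.

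ABCC4, or MRP4, which exports cyclic nucleotides, prostaglandins and nucleotide analogs, was at 26.7 and 23.4 CPM in knockdown and at 32 and 22.2 CPM in control. The knockdown values lay between the controls, and the log2 fold change was −0.11 (standard error 0.26), with −0.35 and 0.17 against control replicates 1 and 2 alone. ABCC5, or MRP5, a further exporter of cyclic nucleotides and nucleotide analogs, was at 45.8 and 43.9 CPM in knockdown and at 37.1 and 38 CPM in control. Its groups did not overlap and its replicates lay close, but the difference was small, with a log2 fold change of 0.26 (standard error 0.18). ABCC10, or MRP7, which confers resistance to taxanes, was at 19.5 and 24.3 CPM in knockdown and at 14.2 and 15.8 CPM in control. Its log2 fold change was 0.54 (standard error 0.24), again with both knockdown values above both controls. ABCC10 shares 79 exonic bases with DLK2 on the opposite strand, and 2.57% of its 50-base stretches occur in other genes. The positions of the 5 remaining ABCC genes on GRCh38 are chromosome 10, 99782640 to 99852594 for ABCC2, chromosome 17, 50634777 to 50692252 for ABCC3, chromosome 13, 95019829 to 95301475 for ABCC4, chromosome 3, 183919934 to 184018015 for ABCC5, and chromosome 6, 43427366 to 43450430 for ABCC10.

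**Figure D2:**
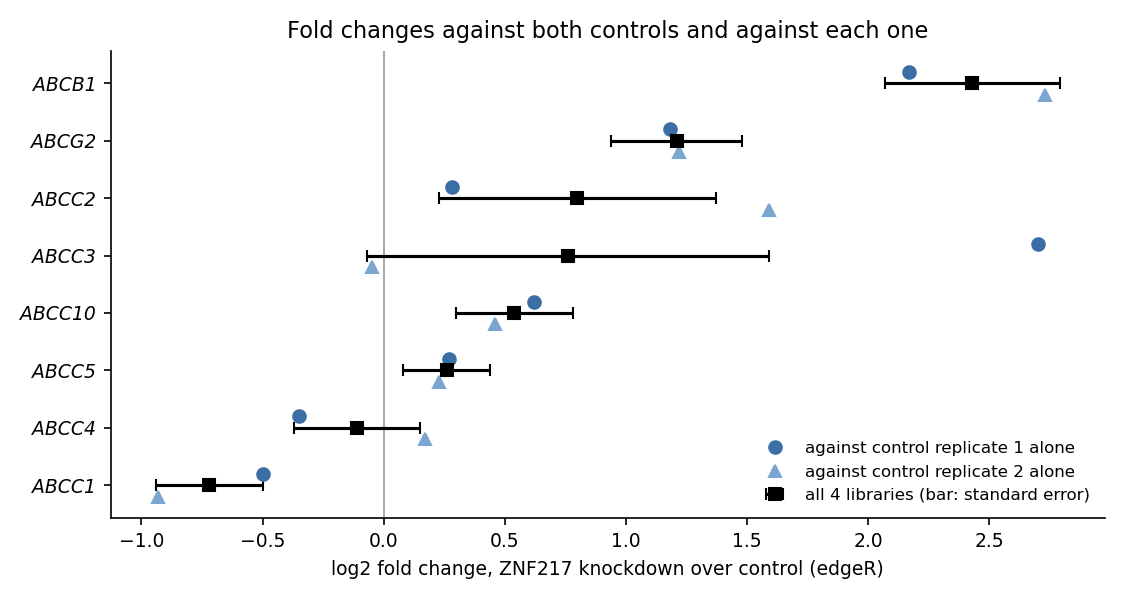
Log2 fold changes of the 8 transporter genes, ZNF217 knockdown over control, by edgeR. Black squares use all 4 libraries with standard errors as bars, circles use control replicate 1 alone and triangles control replicate 2 alone. ABCB1, at 2.17 and 2.73, and ABCG2 stay on the higher side against either control, while ABCC3, at 2.70 and −0.05, and ABCC4 lie on both sides of 0.

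Levels of different genes were compared per length, in TPM (reads over gene length, scaled to the same total in every library). ABCC1 was the highest of the 8 in every library, at 14.4 and 13.5 TPM in knockdown and 20.4 and 22.6 TPM in control. In control cells ABCC1, at 21.5 ± 1.53 TPM, was followed by ABCC5 (10.2 ± 1.21) and ABCC4 (9.82 ± 3.78), which overlapped, and then by ABCC10 (5.69 ± 0.354) and ABCG2 (3 ± 0.48). ABCC3, ABCB1 (1.17 ± 0.473) and ABCC2 (0.608 ± 0.434) came last, and their control ranges overlapped those of their neighbours (SD, n = 2). In knockdown cells the order was ABCC1 (13.9 ± 0.638 TPM), ABCC5 (12.8 ± 0.775), ABCC4 (9.44 ± 1.17), ABCC10 (8.76 ± 1.11), ABCG2 (7.3 ± 0.227), ABCB1 (6.53 ± 0.626), ABCC3 (3.65 ± 0.214) and ABCC2 (1.07 ± 0.112). There only ABCC4 and ABCC10 overlapped as neighbours.

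The 8 genes summed to 64.9 and 62.1 TPM in knockdown and to 56.2 and 51.5 TPM in control. TPM takes no TMM factor, and control replicate 2 reads lower on this scale. ABCC5, for example, was at 37.1 and 38 CPM in the controls but at 11 and 9.3 TPM. The sums are therefore no measure of a difference between the groups, while shares within a library do not depend on this scaling. ABCB1 and ABCG2 together were at 14.4 and 13.2 TPM in knockdown and at 4.84 and 3.49 TPM in control. The share of ABCC1 in the sum was 22.2% and 21.7% in knockdown and 36.3% and 43.9% in control. The share of ABCB1 was 10.7% and 9.81% in knockdown and 2.67% and 1.62% in control. Even at its higher level ABCB1 thus stayed below ABCC1, ABCC5, ABCC4, ABCC10 and ABCG2 in each knockdown library.

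**Figure D3:**
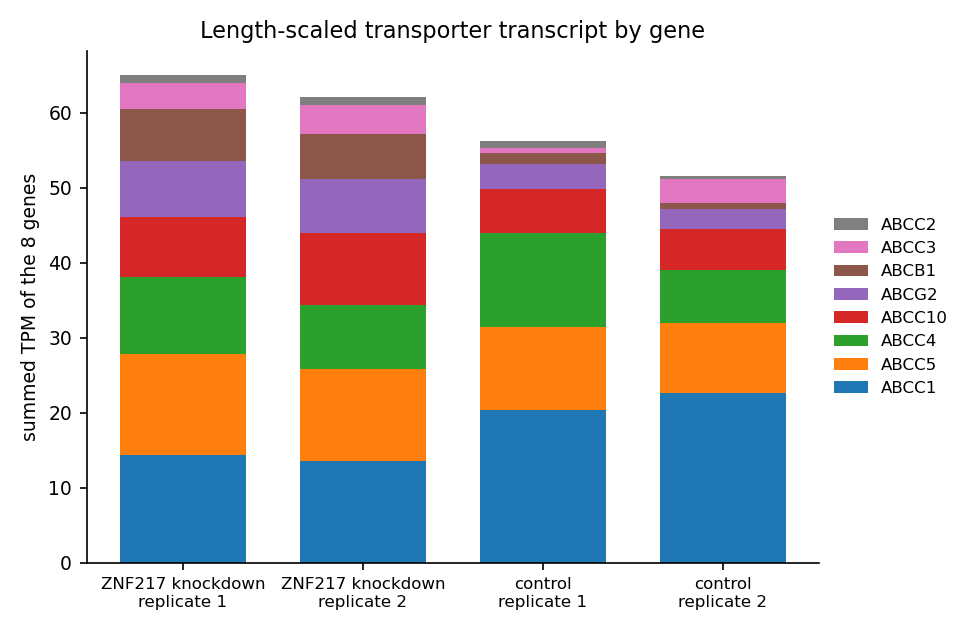
Stacked TPM of the 8 transporter genes in each library, from the ZNF217 knockdown replicates on the left to the control replicates on the right. The sums are 64.9, 62.1, 56.2 and 51.5 TPM, and the ABCB1 and ABCG2 segments are larger in the knockdown libraries while the ABCC1 segment is smaller. TPM takes no TMM factor, so the summed heights are no measure of a difference between the groups.

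The tested genes whose 4 centred log2 CPM values lay nearest to those of ABCB1 were TFEC (distance 0.23), RASGRP3 and IFIT2 (0.25 each). IFIT2, an antiviral interferon-stimulated gene, was at 80.1 and 69.1 CPM in knockdown and at 14.2 and 9.68 CPM in control. TFEC, a transcription factor of the MITF family, had 16 and 11 counts in knockdown and 1 and 0 in control, and RASGRP3, an activator of Ras proteins, had 29 and 24 against 4 and 3. Nearest to ABCC1 were FSTL1 (distance 0.04), NBPF10 and ADIPOR1 (0.06 each). FSTL1, a secreted glycoprotein, was at 307 and 296 CPM in knockdown and at 414 and 553 CPM in control. NBPF10 belongs to a family of near-identical genes, so its counts are uncertain. Each distance is over 4 libraries only, and the prior count of 2 in log2 CPM shrinks the differences of genes with few counts, such as TFEC. The fitted log2 fold changes were 4.29 for TFEC, 2.7 for RASGRP3 and 2.64 for IFIT2, against 2.43 for ABCB1.

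The lists of other genes that follow were also chosen with results of these data known. Over all tested genes 6.61% were higher and 6.42% lower at an unadjusted p under 0.05 by edgeR (13% in all). DESeq2 called 1.76% higher and 2.04% lower (3.8% in all) of the genes for which it gave an adjusted p. The counts of genes whose groups stood apart are also given where leaving out 1 library moved them by over 1.5 times. Such counts over all tested genes were 46.8% higher and 43.6% lower without control replicate 1 and 43.4% and 42.4% without control replicate 2. They were 30.9% and 29.7% without knockdown replicate 1 and 31.4% and 28.4% without knockdown replicate 2.

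Among the other ABC genes, of 40 genes 26 were tested, with a median log2 fold change of 0.07, and the groups stood apart with knockdown higher for 8 and lower for 3, beside 25.4% and 22.9% of all tested genes. Without control replicate 1 these counts were 14 and 10, without control replicate 2 they were 14 and 7, and without knockdown replicate 2 they were 10 and 5. None passed edgeR's adjusted threshold (1 higher and 2 lower at an unadjusted p under 0.05), and DESeq2 called 1, ABCA1, lower. ABCA1, which loads cholesterol onto apolipoprotein A-I, was at 13.3 and 7.8 CPM in knockdown and at 29.1 and 42.3 CPM in control (log2 fold change −1.76, standard error 0.36, edgeR adjusted p = 0.221, DESeq2 adjusted p = 0.000701). ABCB10, a mitochondrial transporter of heme-forming cells, was at 9.88 and 7.01 CPM in knockdown and at 22.9 and 14.1 CPM in control, and ABCA10 at 3.71 and 3.63 against 1.43 and 1.65 CPM. ABCA10 lies in a cluster of close paralogs. The peptide transporters TAP1 and TAP2 were at 53.7 and 61.3 CPM and at 51.8 and 55.4 CPM in knockdown, against 27.2 and 52.5 CPM and 50.7 and 24.5 CPM in control. ABCG1, a sterol exporter, was at 2.97 and 2.38 CPM in knockdown and at 1.94 and 33.2 CPM in control, where the controls disagreed. ABCC6, the neighbour of ABCC1, had 15 and 11 counts in knockdown and 12 and 26 in control, and ABCB5 had 0 in every library, which allows up to 3 counts, or 0.117 to 0.139 CPM.

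Conjugating enzymes supply the cargo of the ABCC pumps. Of 21 glutathione transferase genes 20 were found and 13 tested, with a median of 0.16, and 6 stood apart as higher and 1 as lower, beside 25.4% and 22.9% of all tested genes. The counts became 7 and 6 without control replicate 1 and 11 and 2 without control replicate 2. None passed by edgeR, where 3 were higher and 0 lower at an unadjusted p under 0.05, and DESeq2 called 1, MGST1, higher. MGST1, a microsomal glutathione transferase, was at 386 and 393 CPM in knockdown and at 172 and 166 CPM in control, a 2.31-fold difference (log2 standard error 0.16, edgeR adjusted p = 0.146, DESeq2 adjusted p = 0.000166). MGST3 was at 83.7 and 78.8 CPM in knockdown and at 35.7 and 58.3 CPM in control, and GSTA4, which detoxifies lipid peroxidation products, at 11.6 and 9.72 against 3.14 and 5.67 CPM. GSTP1, the most abundant of the list, was at 769 and 838 CPM in knockdown and at 564 and 875 CPM in control, with overlapping groups. GSTA and GSTM genes have close paralogs, so their counts are uncertain.

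Of 30 genes of glucuronide and sulfate conjugation only 8 were tested, with a median of 0.39. Of these 6 stood apart as higher and 1 as lower, beside 25.4% and 22.9% of all tested genes, and none passed by edgeR or DESeq2 (1 higher and 0 lower by edgeR at an unadjusted p under 0.05). UGT8, which makes galactosylceramide, was at 23 and 19.8 CPM in knockdown and at 17.1 and 12.4 CPM in control. SULT1A1 had 14 and 12 counts in knockdown and 0 and 1 in control, and SULT1C2 had 28 and 23 against 6 and 13. SULT1A genes are near-identical copies, so these counts are uncertain.

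Uptake carriers bring drugs into cells. Of 28 genes 13 were tested, with a median of 0.46, and 9 stood apart as higher and 1 as lower, beside 25.4% and 22.9% of all tested genes. With control replicate 2 left out 9 were higher and 3 lower, and with knockdown replicate 1 left out 10 and 2. None passed by edgeR (2 higher and 0 lower at an unadjusted p under 0.05), and DESeq2 called 1, SLCO2B1, higher. SLCO2B1, an organic anion carrier, had 42 and 33 counts in knockdown and 0 in both controls, which is at least 11.1-fold higher against a floor of 3 counts per control library (edgeR adjusted p = 0.16, DESeq2 adjusted p = 0.00189). The proton-coupled folate carrier SLC46A1 was at 3.98 and 5.38 CPM in knockdown and at 2.5 and 1.43 CPM in control, and the nucleoside carrier SLC29A2 at 26.3 and 23.9 against 9.66 and 18.3 CPM. Of 5 tested genes for other efflux proteins and the major vault protein, 1 stood apart as higher and 0 as lower, beside 25.4% and 22.9% of all tested genes, with a median of −0.05. Leaving out control replicate 1 gave 1 and 3, control replicate 2 gave 4 and 0, and knockdown replicate 1 gave 2 and 1. None passed by edgeR, by DESeq2 or at an unadjusted p under 0.05. The gene that stood apart was the copper exporter ATP7A, at 9.37 and 7.26 CPM in knockdown and at 3.42 and 5.85 CPM in control. ATP7B was at 4.06 and 3.75 CPM in knockdown and at 3.38 and 6.65 CPM in control, and the drug and cation exporter SLC47A1 at 1.33 and 1.88 against 0.879 and 1.56 CPM.

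Regulators known to act on efflux genes lay in both directions. Of 26 genes 22 were tested, with a median of −0.09, and 7 stood apart as higher and 7 as lower, beside 25.4% and 22.9% of all tested genes. None passed by edgeR (1 higher and 3 lower at an unadjusted p under 0.05), and DESeq2 called 1, MAFF, lower. NFE2L2, which encodes NRF2, was at 105 and 101 CPM in knockdown and at 81.3 and 59.9 CPM in control (log2 fold change 0.54, standard error 0.22, edgeR adjusted p = 0.388). KEAP1, which targets NRF2 for degradation, was at 88.3 and 94.2 CPM in knockdown and at 90 and 49.1 CPM in control, with overlapping groups. MAFF, a small partner of NRF2, was at 29.7 and 29.5 CPM in knockdown and at 43.2 and 123 CPM in control, where the controls disagreed. EPAS1, a hypoxia-inducible factor, was at 132 and 131 CPM in knockdown and at 82.1 and 94.6 CPM in control, and FOXO3 at 16.3 and 12.5 against 20.9 and 26.5 CPM. The PXR gene NR1I2 had 0 counts in every library.

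Of 7 tested genes for proteins that anchor or stabilise the pumps at the membrane, 1 stood apart as higher and 3 as lower, beside 25.4% and 22.9% of all tested genes, with a median of −0.37. The counts were 3 and 3 without control replicate 1, 1 and 5 without control replicate 2, and 2 and 3 without knockdown replicate 2. None passed by edgeR (0 higher and 1 lower at an unadjusted p under 0.05), and DESeq2 called 1, PIM1, lower. PIM1, a kinase that phosphorylates ABCG2, was at 9.95 and 9.01 CPM in knockdown and at 14.7 and 59.6 CPM in control. The cortical linker MSN (moesin) was at 569 and 535 CPM in knockdown and at 1080 and 582 CPM in control, and the scaffold SLC9A3R2 at 50.3 and 54 against 56.7 and 88.8 CPM.

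**Figure D4:**
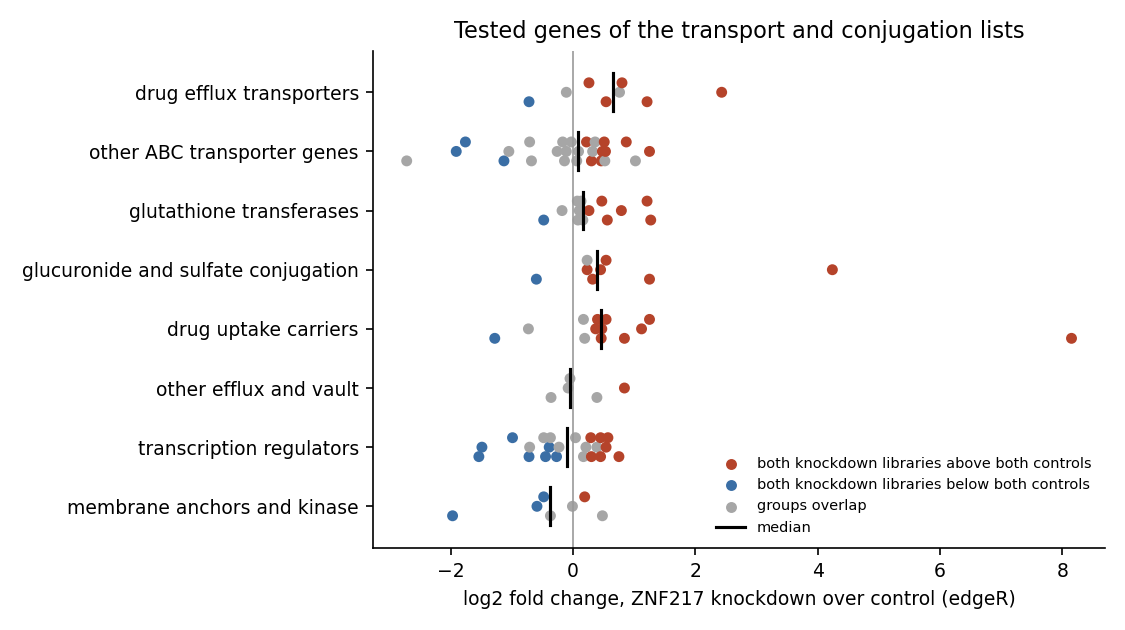
Log2 fold changes (ZNF217 knockdown over control, edgeR) of the tested genes of each list, with the list's median as a black line. Red points have both knockdown libraries above both controls, blue points both below, and grey points overlap. Medians run from −0.37 for the membrane anchors to 0.65 for the 8 transporters, and the farthest points are SLCO2B1 and SULT1A1, whose controls held at most 1 count.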

How the data were processed

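Total RNA of SJSA-1 cells was sequenced. The submitters' processing notes name GRCh38, HISAT2, Trimmomatic, DESeq2 and Subread. Neither versions nor strand setting nor annotation is given in the sources used here. The authors deposited raw counts, whole numbers per gene without normalization. The authors also deposited a length-scaled signal headed TPM, each column 10 times as large as TPM. Divided by 10 it differed from TPM recomputed here by at most 5.1e-11. The authors' DESeq2 table gives, per the file headers, log2 fold changes (control over knockdown), a test score, p-values and adjusted p-values, and a mean normalized signal, and was used for no test.

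The main test was the quasi-likelihood test of edgeR 4.0.16 (R 4.3.3) on the counts, with TMM factors, the default low-count filter (minimum count 10, minimum total 15), no covariate and two-sided p-values adjusted by Benjamini-Hochberg over 12965 genes. Log2 CPM used a prior count of 2. DESeq2 1.42.0 and limma 3.58.1 (also on log2(TPM + 1) and log2(TPM + 0.1)) were alternatives, with other scaling, filters, a replicate block and each library left out. Tests were checked on simulated data with the same spread setting for all genes and both groups. The controls here stood further apart than the knockdown libraries, which that check does not cover. The transporters and lists were chosen with earlier results of these data known. Named genes were the 8 transporters, ZNF217, up to 3 tested genes with the smallest p per list, 6 genes by name (ABCB4, ABCC6, NFE2L2, KEAP1, NR1I2, GSTP1), and the 3 genes nearest in pattern to ABCB1 and to ABCC1. TAP1, TAP2, ABCG1 and ABCB5 were named after their values were seen. A symbol with several IDs was taken at the ID with most reads. Gene positions came from GENCODE release 29 (GRCh38) and start windows from RefSeq on GRCh38.p14. Intervals and floors (3 counts) cover counting error only. Figures were drawn with matplotlib 3.10.9.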

Additional observations from a re-analysis of the deposited data

How the results depend on the processing

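Genes called over the whole table, 0 higher and 0 lower by edgeR, were 16 and 3 without a low-count filter and 230 and 267 by DESeq2. With each library left out they ranged from 12 to 3710 higher and from 3 to 3729 lower, the most without control replicate 1, with 2374 and 2183 without control replicate 2 and 12 and 4 or 12 and 3 with knockdown replicate 1 or 2 left out. A lone library is then assumed to vary like the other group. The labels do not say whether the replicate numbers pair samples. The correlation of deviations was −0.03, which with 2 libraries per group cannot decide it. A fit with a replicate block called 160 genes higher and 124 lower. The log2 fold change of ZNF217 was −1.03 and called by DESeq2, and it ranged from −1.13 to −0.89 with a library left out, called without either control. By DESeq2 1.76% of the 13062 genes with an adjusted p were called higher and 2.04% lower. Beside these shares, the list counts became 2 higher of the 8 transporters (chosen on this contrast, so not a test of them) and 1 lower of 26 other ABC genes. They became 1 higher of 13 glutathione transferases, 1 higher of 13 uptake carriers, 1 lower of 22 regulators and 1 lower of 7 anchors.

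The median of the 8 transporters, 0.65, was 0.34 without control replicate 1 and 0.45, 0.77 and 0.52 without the others. As an alternative chosen after seeing the data, with a library left out 5 to 6 transporters were higher and 1 to 2 lower in every knockdown library than in every control; 2 were lower without control replicate 2. Over all tested genes the shares, 25.4% and 22.9% with all 4 libraries, were 46.8% and 43.6% without control replicate 1, 43.4% and 42.4% without control replicate 2, and 30.9% to 31.4% higher and 28.4% to 29.7% lower without a knockdown library. Without control replicate 1 the directions of ABCC3 (−0.05) and ABCC4 (0.17) turned, and without control replicate 2 these were 2.70 and −0.35; the cause was not tested. Over the 13 alternatives the log2 fold change ran from 1.81 to 2.73 for ABCB1, 1.06 to 1.32 for ABCG2 and −0.93 to −0.50 for ABCC1. Library totals moved the median of all genes by 0.11 and changed no transporter's direction. Of 104 transporter values 90 moved by less than the spread between replicates. Counts under 100 per library limit ABCC2, the ABCB1 controls and ABCC3 in control replicate 1.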

Other observations

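The authors' deposited table, given as control over knockdown, did not match the deposited counts for some transporters. For ABCB1 the authors' deposited table gives a log2 value of −1.76 (standard error 0.43), which like the counts has ABCB1 higher in knockdown. ABCB1 was chosen on this contrast and the libraries behind that value are not known, so the shared direction is no separate support. For ABCG2 the authors' deposited table gives 0.26 (standard error 0.41), which is lower in knockdown, while all counts of ABCG2 lay higher in knockdown. The authors' deposited table likewise gives 0.41 (standard error 0.42) for ABCC3 and −0.23 (standard error 0.41) for ABCC4. The directions from the counts are 0.76 and −0.11 as knockdown over control. The deposited values of ABCG2, ABCC3 and ABCC4 are each smaller in size than their standard errors. The directions of ABCC3 and ABCC4 from the counts turned with the control library used. The mean normalized count of ABCG2 is 841 in the authors' deposited table, against 210 over the 4 libraries of the count table. Of the 3470 genes with 0 counts in all 4 libraries, 765 have a mean above 0 in the authors' deposited table, and 932 genes with counts have a mean of 0 there. That mean is therefore not the mean of these 4 libraries. Which libraries entered that mean is not known here.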
